A study of Mus musculus with 15 samples.

Results

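Solute carriers are membrane proteins that move small molecules across cell membranes, and those of brain vessels were examined here in cerebral vessels of mice. They were chosen by gene name, starting with Slc and a digit or with Slco, and by their level, a mean across the 15 libraries of no less than 1 FPKM, a unit that counts fragments per length of transcript and depth of library. The mitochondrial carriers of the Slc25 family, 47 genes, were left out. Of 312 genes with such names, 213 passed and 99 did not, out of 22557 genes in the whole table. The level chose the members and is given as a description. The lowest members were Slc2a5 at 1.05, Slc26a6 at 1.02 and Slc19a2 at 1.01 FPKM, and the highest genes outside were Slc14a2 at 0.919, Slc7a4 at 0.894 and Slc37a2 at 0.872 FPKM. 6 of the 213, among them Slc10a6, Slc7a2 and Slc15a3, passed through a single group, having a mean under 1 FPKM over the libraries of the other groups, so that the rule itself favours a difference in them. By family name 208 members are carriers and were sorted into 12 substrate classes, while 5 carry the name for other reasons.

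The vessels came from wild-type C57BL/6 mice aged 8 months, in 3 groups of 5 libraries. LH3-AL mice had a stereotactic injection of AAV-LH3, an adeno-associated virus carrying the collagen-modifying enzyme LH3 (gene Plod3), and then AngII plus L-NAME, the vasoconstrictor angiotensin II given with an inhibitor of nitric oxide synthase. GFP-AL mice had AAV-GFP, the same vector type carrying green fluorescent protein, and the same drugs, and GFP-Veh mice had AAV-GFP and saline. All groups thus carried a virus, none had AAV-LH3 with saline, and the series concerns haemorrhage in the brain under high blood pressure. The labels do not say whether libraries came from separate mice, so p-values measure the spread between these libraries, which may be in part technical.

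The endothelium of brain vessels is sealed by tight junctions, and glucose, amino acids, lactate, vitamins, hormones and metals reach the brain through carriers in its membranes. Glucose crosses by the transporter Slc2a1, large neutral amino acids by the dimer of Slc7a5 and Slc3a2, lactate by Slc16a1 and thyroid hormone by Slco1c1 among others. Other carriers in such a preparation belong to pericytes, to the astrocyte endfeet that stay attached, to blood cells and to the choroid plexus, the epithelium that secretes cerebrospinal fluid.

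Low values move in steps worth a fragment, and the depth estimated from these was 18.0 to 31.4 M fragments in LH3-AL, 21.1 to 27.6 M in GFP-AL and, in GFP-Veh, 13.5 to 15.9 M with 29.6 M in replicate 5. Plod3 averaged 21.6 ± 1.46 FPKM in LH3-AL, 13.9 ± 1.09 in GFP-AL and 16.8 ± 0.621 in GFP-Veh (SD, n = 5 each). The 10 endothelial markers examined summed to 1799 to 2529 FPKM in LH3-AL, 2268 to 3600 in GFP-AL and 1863 to 2762 in GFP-Veh, and none was at 0 in all libraries. By limma 4 of the 10 were higher in GFP-AL than in GFP-Veh (Pecam1, Cdh5, Esam and Ly6c1) and 4 lower (Tek, Kdr, Ocln and Emcn). GFP-AL replicates 2 and 3 lay farthest from the other libraries on the first principal component (scores 49.4 and 58.0, against 19.8 to 27.9 in the other GFP-AL libraries and -27.1 to -4.13 in the other groups together). Choroid plexus markers were lower in GFP-AL for 6 of 8 (summed 3172 to 5267 FPKM in LH3-AL, 1976 to 3100 in GFP-AL and 3679 to 9214 in GFP-Veh), although the protocol removes that tissue. Microglia and macrophage markers were higher in GFP-AL for 3 of 6 (summed 50.5 to 60.9 FPKM in LH3-AL, 86.3 to 116.8 in GFP-AL and 40.1 to 67.7 in GFP-Veh). Of 4 neutrophil markers tested 2 were higher in GFP-AL than in GFP-Veh and all 4 were lower in LH3-AL than in GFP-AL, the list of 5 summing to 33.3 to 58.1 FPKM in LH3-AL, 99.1 to 876 in GFP-AL and 72.3 to 213 in GFP-Veh. In GFP-AL against GFP-Veh 4 of 6 oligodendrocyte, 3 of 4 ependyma, 3 of 8 pericyte and 1 of 6 smooth muscle markers were lower and none higher, and no fibroblast or neuron marker was called. Their part in the carriers' values was not tested. In bulk libraries fewer cells of a type and less RNA per cell cannot be told apart.

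Under AngII plus L-NAME with the control virus, solute carriers moved in both directions, with more lower than higher, as among all genes. In GFP-AL against GFP-Veh 23 of 213 members rose (10.8%) and 43 fell (20.2%), by limma with an adjusted p below 0.05 over all 13082 genes tested. Of all genes tested 10.8% rose and 17.7% fell, so the members' shares of calls of any size were near the background. The members' median log2 difference was -0.12 and that of all genes -0.09, with fold changes throughout on the scale of log2(FPKM + 1), which understates those of low genes. Called changes of at least 1.5-fold numbered 45 of 213, a larger share than the 14.2% of all genes, which was not tested. Without the 6 genes that passed through a single group 21 of 207 rose and 42 fell. Without overlap between the groups, 15 of 213 members were higher and 28 lower, against 6.59% and 10.1% of all genes. The lower share was above that of all genes and the higher share near it. Scaling the libraries by median of ratios turned the split into 32 higher and 34 lower, and that of all genes into 14.5% higher and 12.2% lower. Leaving out GFP-AL replicates 2 and 3 and GFP-Veh replicate 2 gave 27 and 33, beside 11.6% and 14.6% of all genes. With the log2 of the estimated depth as a covariate 14 were higher and 27 lower, beside 7.68% and 10.1% of all genes, where GFP-Veh held most of the shallow libraries.

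With the LH3 virus in place of the GFP virus under the same drugs, more carriers were higher than lower, again as among all genes. In LH3-AL against GFP-AL 43 of 213 members rose (20.2%) and 20 fell (9.39%), beside 17.0% and 11.4% of all genes tested, and the members' median was 0.12 where that of all genes was 0.08. Scaling by median of ratios gave 38 higher and 25 lower members, and turned the split of all genes into 12% higher and 15.8% lower. Called changes of at least 1.5-fold numbered 44 of 213, a larger share than the 13.5% of all genes, which was not tested. Without the 6 genes that passed through a single group 43 of 207 rose and 18 fell. The groups did not overlap for 25 higher and 14 lower of the 213 members, against 11.0% and 8.45% of all genes. The comparisons share the GFP-AL libraries, so values in all groups are given side by side for many of the carriers named below. For the others only a part of the values is given. Summed over the 213 members, the level was 5187 ± 415 FPKM in LH3-AL, 4935 ± 437 in GFP-AL and 4944 ± 103 in GFP-Veh (SD, n = 5 each). The ranges overlapped, at 4716 to 5527 FPKM in LH3-AL, 4177 to 5283 in GFP-AL and 4816 to 5068 in GFP-Veh. Within that sum the glucose transporter Slc2a1 made up 16.2% in LH3-AL, 27.7% in GFP-AL and 14.8% in GFP-Veh.

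**Figure D1:**
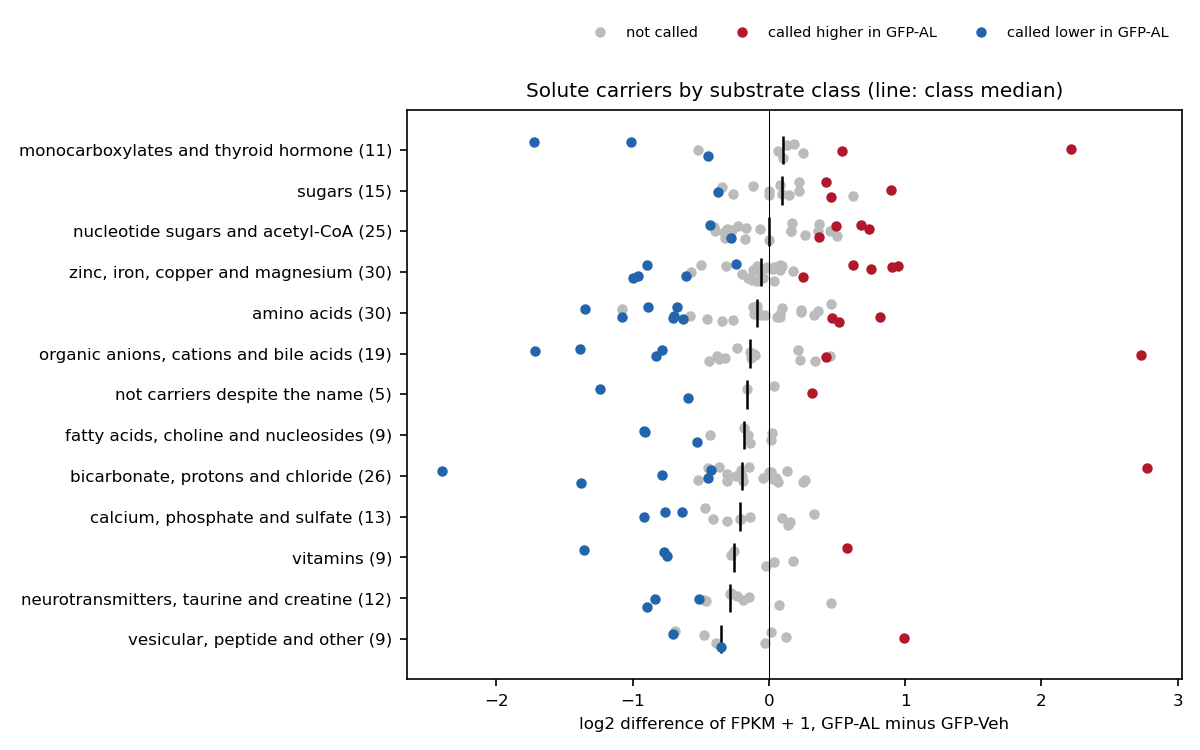
Log2 difference of FPKM + 1 of each of the 213 members, GFP-AL minus GFP-Veh, by substrate class, with the number of members in brackets and a line at the class median. Each point is a gene, red where it rose, blue where it fell and grey where it was not called. The classes run from the highest median at the top, and calls in both directions occur in 9 of the 12 carrier classes.

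By substrate, the class medians in GFP-AL against GFP-Veh lay between 0.10 and -0.35, and no class moved as a block. The highest median was that of the carriers of monocarboxylates and thyroid hormone (0.10, n = 11), followed by sugars (0.10, n = 15). The lowest was that of the vesicular, peptide and other carriers (-0.35, n = 9), followed by carriers of neurotransmitters, taurine and creatine (-0.28, n = 12) and of vitamins (-0.26, n = 9). The carriers of neurotransmitters, of fatty acids, choline and nucleosides and of calcium, phosphate and sulfate had 3 of 12, 3 of 9 and 3 of 13 members lower and none higher, beside 17.7% and 10.8% of all genes. Among these calls, that of Slc6a13, a neurotransmitter carrier, held in 10 of 25 alternatives to the main fit. That of Slc24a2, in the calcium class, held in 6 of 24, and each of the others in no fewer than 21.

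The 4 carriers with the largest called changes on the log2(FPKM + 1) scale in both comparisons with GFP-AL, leaving out the red cell protein Slc4a1, were Slc10a6 and Slc16a3, which were higher in GFP-AL, and Slc26a10 and Slc16a4, which were lower. Slc10a6 passed the level rule through GFP-AL alone, so its place among them is a description. Their promoters are shown because these genes moved the most, each as 300 bases (250 before and 50 after the annotated start) from RefSeq on build GRCm38.p6, in the direction of transcription. They were searched on both strands for the core of the hypoxia response element, ACGTG or GCGTG, and for the STAT motif TTCNNNGAA, and capitals mark a match. The windows are chr5:103629354-103629653 (minus strand) for Slc10a6, chr11:120948817-120949116 (plus) for Slc16a3, chr10:127180533-127180832 (minus) for Slc26a10 and chr3:107290980-107291279 (plus) for Slc16a4.
Slc10a6: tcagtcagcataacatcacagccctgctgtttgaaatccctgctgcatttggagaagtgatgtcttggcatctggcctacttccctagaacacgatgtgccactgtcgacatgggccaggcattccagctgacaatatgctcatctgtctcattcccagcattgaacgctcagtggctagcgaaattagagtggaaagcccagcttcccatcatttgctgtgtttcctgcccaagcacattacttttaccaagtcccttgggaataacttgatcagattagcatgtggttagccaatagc
Slc16a3: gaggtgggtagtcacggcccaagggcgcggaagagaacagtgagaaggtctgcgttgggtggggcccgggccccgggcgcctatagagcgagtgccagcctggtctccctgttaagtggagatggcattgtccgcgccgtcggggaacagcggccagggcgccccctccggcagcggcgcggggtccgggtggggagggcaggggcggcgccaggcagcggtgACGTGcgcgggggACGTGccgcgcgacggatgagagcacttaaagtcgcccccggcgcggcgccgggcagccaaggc
Slc26a10: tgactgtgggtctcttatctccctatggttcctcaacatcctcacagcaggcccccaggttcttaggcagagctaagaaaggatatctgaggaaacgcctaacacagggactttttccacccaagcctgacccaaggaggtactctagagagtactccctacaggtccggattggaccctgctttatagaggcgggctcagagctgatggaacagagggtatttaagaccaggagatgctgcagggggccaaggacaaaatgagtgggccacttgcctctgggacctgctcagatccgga
Slc16a4: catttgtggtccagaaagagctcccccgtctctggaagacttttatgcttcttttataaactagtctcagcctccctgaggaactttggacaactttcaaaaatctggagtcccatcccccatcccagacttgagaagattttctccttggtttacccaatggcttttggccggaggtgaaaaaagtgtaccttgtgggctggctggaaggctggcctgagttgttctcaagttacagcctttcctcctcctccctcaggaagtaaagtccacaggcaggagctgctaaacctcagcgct
The Slc16a3 window held ACGTG at 27 and at 14 bases before the RefSeq start, and the other windows held no match of either motif. All of the Slc16a3 window lies downstream of the gene start in the GENCODE annotation, which gives the gene positions below. Both matches thus fall inside the gene as placed there. The RefSeq start of Slc26a10 also lies inside its GENCODE gene, by a smaller distance. Of all 32851 RefSeq promoters of this length, 43.8% held ACGTG or GCGTG and 8.30% held TTCNNNGAA. Of 221 promoters of the 165 members found in that table the shares were 57.5% and 4.52%. A match describes the letters only.

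Among monocarboxylate carriers, 2 of 11 rose and 3 fell in GFP-AL against GFP-Veh (all genes 10.8% and 17.7%). In LH3-AL against GFP-AL 3 rose and 3 fell (all genes 17.0% and 11.4%). Slc16a3 (ENSMUSG00000025161, chromosome 11, 120948480 to 120960868, plus strand, GRCm38), the lactate exporter of glycolytic cells, measured 0.681, 0.948, 0.955, 0.723 and 2.60 FPKM in the LH3-AL libraries, 5.40, 23.5, 8.04, 5.77 and 5.17 in GFP-AL and 0.931, 0.983, 1.14, 0.795 and 0.861 in GFP-Veh. Each GFP-AL library stood above all others, and the mean was 10.2 times that of GFP-Veh. The log2 difference was 2.21 ± 0.31 (SE) in GFP-AL against GFP-Veh (limma adjusted p = 0.000153) and -2.11 ± 0.31 in LH3-AL against GFP-AL (adjusted p = 0.000351). The 2-sided exact permutation p was 0.00794 in both, the smallest that 252 assignments of 10 libraries can give. Groups of 5 without overlap always give this value, so it only restates the lack of overlap. Outside GFP-AL only LH3-AL replicate 5, at 2.60 FPKM, and GFP-Veh replicate 3, at 1.14, exceeded 1 FPKM. Slc16a3 thus met the level rule largely through GFP-AL, which limits what these p-values show. Slc16a6, a ketone body carrier of the same family, rose by less, with 5.34 ± 1.22 FPKM in LH3-AL, 9.19 ± 1.04 in GFP-AL and 6.03 ± 0.862 in GFP-Veh (0.54 ± 0.13 in GFP-AL against GFP-Veh at adjusted p = 0.00656). Exons of Slc16a6 overlap Amz2 and Arsg on the opposite strand, and since the sources used here do not say whether strand was counted, reads of such pairs cannot be told apart. Its call in GFP-AL against GFP-Veh ended (adjusted p = 0.0547) when GFP-AL replicates 2 and 3 and GFP-Veh replicate 2 were left out together.

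Slc16a4 (ENSMUSG00000027896, chromosome 3, 107291230 to 107312115, plus strand), a family member with no settled substrate, ran the other way. Its levels were 28.7, 19.6, 17.0, 17.1 and 20.9 FPKM in LH3-AL, 5.64, 2.79, 2.97, 12.7 and 6.39 in GFP-AL and 13.1, 22.1, 26.0, 21.6 and 18.9 in GFP-Veh. All GFP-AL libraries lay below all others, replicate 4 by a small margin. The difference was -1.72 ± 0.29 in GFP-AL against GFP-Veh (limma adjusted p = 0.000617) and 1.75 ± 0.29 in LH3-AL against GFP-AL (adjusted p = 0.000738).

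The carnitine carrier Slc16a9 averaged 23.6 ± 2.71 FPKM in LH3-AL, 13.9 ± 2.64 in GFP-AL and 19.2 ± 2.49 in GFP-Veh, and its rise in LH3-AL against GFP-AL was 0.74 ± 0.13 (adjusted p = 0.00110). The lactate carrier of the barrier, Slc16a1, spanned 28.3 to 90.7 FPKM in LH3-AL, 17.6 to 103 in GFP-AL and 48.2 to 101 in GFP-Veh, the ranges overlapped, and no difference was called (-0.52 ± 0.42 in GFP-AL against GFP-Veh at adjusted p = 0.377).

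Organic anion, cation and bile acid carriers counted 2 higher and 4 lower of 19 in GFP-AL against GFP-Veh (all genes 10.8% and 17.7%). In LH3-AL against GFP-AL 3 were higher and 2 lower (all genes 17.0% and 11.4%). Slc10a6 (ENSMUSG00000029321, chromosome 5, 103605711 to 103629403, minus strand), which takes up sulfated steroids with sodium, stood among the carriers with the largest differences. Its levels were 0.125, 0.290, 1.27, 0.626 and 0.550 FPKM in LH3-AL, 4.84, 11.96, 19.3, 6.86 and 4.14 in GFP-AL and 0.573, 0.410, 0.446, 0.197 and 0.247 in GFP-Veh. No GFP-AL library overlapped another group, and the ratio of mean FPKM was 25.1 in GFP-AL over GFP-Veh (12.5 for Slc4a1, whose difference on the log2(FPKM + 1) scale was the larger) and 0.0608 in LH3-AL over GFP-AL. The log2 difference was 2.73 ± 0.30 in GFP-AL against GFP-Veh and -2.57 ± 0.30 in LH3-AL against GFP-AL. Slc10a6 passed the level rule through GFP-AL alone, so these values are a description, with no test.

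**Figure D2:**
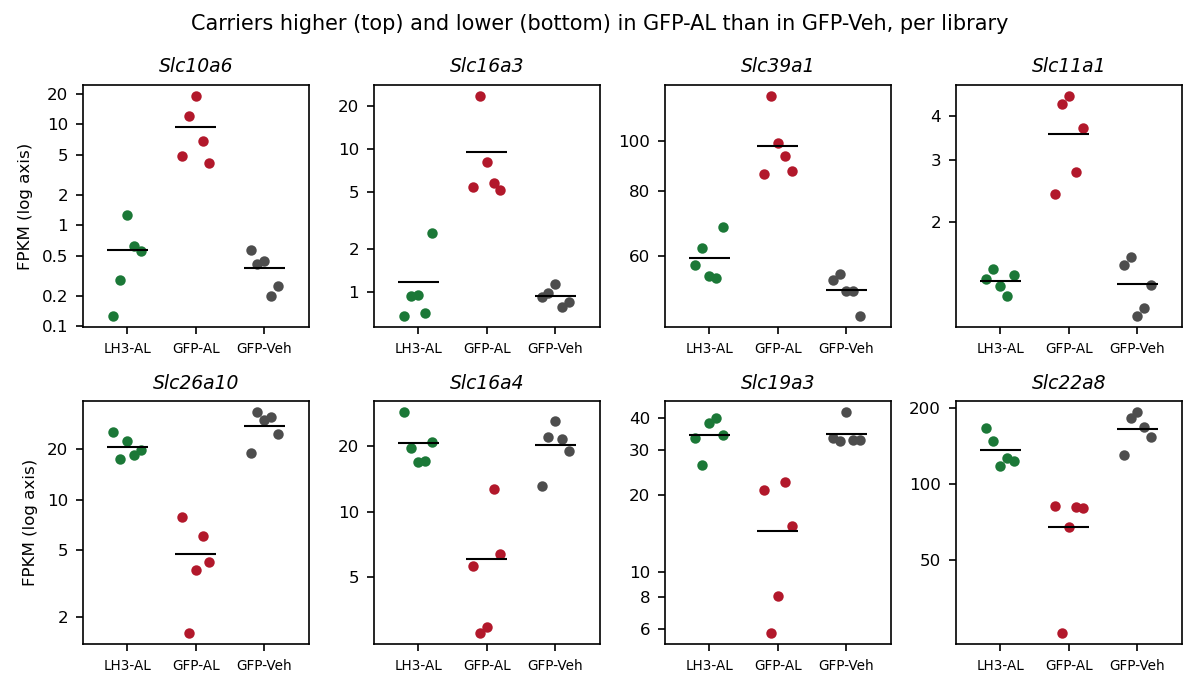
FPKM (log axes, 1 per gene) of 8 carriers in each library of LH3-AL, GFP-AL and GFP-Veh, with a line at the group mean. In the top row (Slc10a6, Slc16a3, Slc39a1, Slc11a1) the GFP-AL libraries lie above all libraries of the other groups, and in the bottom row (Slc26a10, Slc16a4, Slc19a3, Slc22a8) they lie below.

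The organic anion carrier Slc22a8, which clears drugs and metabolites from the brain side, measured 167, 147, 118, 127 and 123 FPKM in LH3-AL, 81.8, 25.8, 67.7, 81.3 and 80.2 in GFP-AL and 131, 183, 193, 168 and 154 in GFP-Veh. All GFP-AL libraries were below all others, and the difference was -1.38 ± 0.25 in GFP-AL against GFP-Veh (limma adjusted p = 0.00111) and 1.11 ± 0.25 in LH3-AL against GFP-AL (adjusted p = 0.00566). The related Slc22a6 averaged 21.4 ± 5.37 FPKM in LH3-AL, 11.8 ± 4.10 in GFP-AL and 21.1 ± 4.20 in GFP-Veh (-0.83 ± 0.23 in GFP-AL against GFP-Veh at adjusted p = 0.0135). Its calls in both comparisons ended without GFP-AL replicates 2 and 3 and GFP-Veh replicate 2 (-0.40 in GFP-AL against GFP-Veh at adjusted p = 0.182), and that in GFP-AL against GFP-Veh also with estimated depth as a covariate (0.0742) and with weighted libraries (0.0534). The cation exporter Slc47a1 had 8.85, 11.1, 10.4, 11.8 and 7.54 FPKM in LH3-AL, 7.28, 0.682, 2.21, 5.87 and 9.04 in GFP-AL and 14.9, 15.8, 14.5, 12.8 and 19.6 in GFP-Veh. It fell by 1.72 ± 0.37 on the log2 scale in GFP-AL against GFP-Veh (limma adjusted p = 0.00307), and in that comparison the groups did not overlap. The part of the lower choroid plexus markers in these values was not tested.

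Of the barrier's organic anion transporting polypeptides, the thyroxine carrier Slco1c1 fell to 77.7, 32.0, 67.2, 99.7 and 87.7 FPKM in GFP-AL, against 109, 130, 136, 111 and 108 in GFP-Veh (-0.79 ± 0.23, adjusted p = 0.0175, and 0.103 with estimated depth as a covariate). In LH3-AL it stood between, at 93.5 ± 12.5 FPKM, and its difference from GFP-AL was not called (0.44 ± 0.23, adjusted p = 0.153). Slco1a4, the most abundant carrier of the class, spanned 208 to 276 FPKM in LH3-AL, 51.0 to 300.4 in GFP-AL and 190.1 to 296 in GFP-Veh, and was not called. Slco2b1 was lowest with the LH3 virus, at 25.6, 23.3, 27.2, 27.9 and 31.0 FPKM in LH3-AL, 37.1, 33.2, 52.0, 49.5 and 47.1 in GFP-AL and 39.9, 34.3, 39.6, 34.97 and 35.3 in GFP-Veh. The LH3-AL libraries lay below all others, with a difference of -0.66 ± 0.12 against GFP-AL (adjusted p = 0.00133) and of -0.44 against GFP-Veh (interval of 2 SE from -0.68 to -0.20, adjusted p = 0.178). Slco2a1, a prostaglandin carrier, was low but rose in GFP-AL, with 1.28 ± 0.158 FPKM in LH3-AL, 1.64 ± 0.320 in GFP-AL and 0.961 ± 0.124 in GFP-Veh (0.42 ± 0.10 in GFP-AL against GFP-Veh at adjusted p = 0.00492).

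Sugar carriers were led by Slc2a1 (ENSMUSG00000028645, chromosome 4, 119108711 to 119137983, plus strand), the glucose transporter of the barrier, which made up 93.5% of the class and was the most abundant member. It measured 441, 402, 1129, 1064 and 1174 FPKM in LH3-AL, 1105, 1273, 1979, 1274 and 1213 in GFP-AL and 969.7, 774, 746, 577 and 591 in GFP-Veh. The GFP-AL libraries were above all GFP-Veh libraries, while LH3-AL replicates 1 and 2 lay under the lowest GFP-Veh library and replicates 3 to 5 above the highest. Slc2a1 rose in GFP-AL against GFP-Veh by 0.90 ± 0.30 (limma adjusted p = 0.0353), and in LH3-AL against GFP-AL its difference of -0.82 ± 0.30 was not called (adjusted p = 0.0518). The call in GFP-AL against GFP-Veh was lost when any of GFP-Veh replicates 3, 4 or 5 or of GFP-AL replicates 2, 3 or 4 was left out, with adjusted p between 0.0501 and 0.0915, and with quantile normalization (0.51, adjusted p = 0.165). It was also lost without GFP-AL replicates 2 and 3 and GFP-Veh replicate 2 together (adjusted p = 0.155), with estimated depth as a covariate (0.139), with no filter on low genes (0.0614) and with weighted libraries (0.0585). In the rest of the class 2 members rose and 1 fell in GFP-AL against GFP-Veh (all genes 10.8% and 17.7%), and 1 fell in LH3-AL against GFP-AL (all genes 11.4%). The rises of Slc2a4 and Slc37a1 held in 15 and 22 of 24 alternatives to the main fit, and the fall of Slc37a3 in 11 of 24. The fall of Slc37a1 in LH3-AL against GFP-AL held in 17 of 24. Slc2a1 overlaps exons of Gm12868 on the opposite strand.

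**Figure D3:**
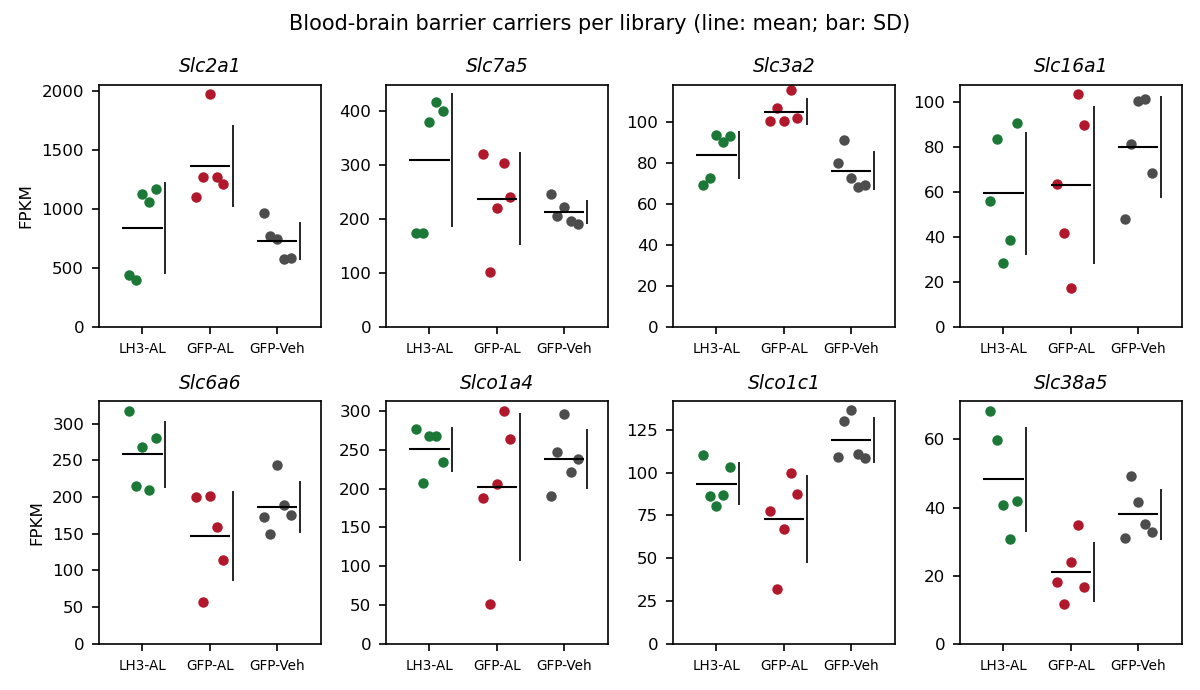
FPKM (linear axes from 0, 1 per gene) of 8 carriers known from the blood-brain barrier in each library of LH3-AL, GFP-AL and GFP-Veh; long lines are group means and vertical bars the SD. Slc2a1 and Slc7a5 fall into low and high libraries within LH3-AL, Slc3a2 is highest in all GFP-AL libraries, and Slc16a1 and Slco1a4 spread widely within GFP-AL.

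Amino acid carriers numbered 30, of which 3 rose and 7 fell in GFP-AL against GFP-Veh (all genes 10.8% and 17.7%). In LH3-AL against GFP-AL 6 rose and 3 fell (all genes 17.0% and 11.4%). Slc7a5, the light chain of the large neutral amino acid transporter, measured 174, 175, 379.9, 418 and 399.7 FPKM in LH3-AL, 321, 103, 221, 304 and 242 in GFP-AL and 247, 206, 223, 198 and 191 in GFP-Veh. The low LH3-AL libraries were replicates 1 and 2, as for Slc2a1, and no difference was called (0.06 ± 0.31 in GFP-AL against GFP-Veh at adjusted p = 0.897). Its heavy chain Slc3a2 had 69.3, 72.6, 93.3, 90.0 and 93.1 FPKM in LH3-AL, 100.5, 106, 100.2, 116 and 102 in GFP-AL and 79.9, 91.2, 72.7, 68.3 and 69.5 in GFP-Veh. Slc3a2 rose in GFP-AL against GFP-Veh by 0.46 ± 0.11 (adjusted p = 0.00586, and 0.0520 with estimated depth as a covariate), every GFP-AL library being above all others. Its fall in LH3-AL against GFP-AL, by 0.33 ± 0.11 (adjusted p = 0.0337), was lost without GFP-AL replicate 2 or 4 or LH3-AL replicate 1 or 2 (adjusted p between 0.0551 and 0.0938), with quantile normalization (adjusted p = 0.443), with weighted libraries (0.0752) and with the replicate number as a block (0.0587).

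The proline and tryptophan carrier Slc36a4 rose more, with 9.46, 8.60, 10.2, 9.05 and 9.31 FPKM in LH3-AL, 14.6, 11.2, 12.5, 12.4 and 12.5 in GFP-AL and 7.97, 4.79, 5.78, 7.58 and 8.06 in GFP-Veh. The 3 groups did not overlap, LH3-AL lying between the others (0.82 ± 0.12 in GFP-AL against GFP-Veh at adjusted p = 0.000198). The small neutral amino acid and D-serine carrier Slc7a10 fell the most of the class on the log2(FPKM + 1) scale, to 10.5, 12.1, 8.43, 8.36 and 8.98 FPKM in GFP-AL, against 24.5, 23.5, 18.4, 31.5 and 35.1 in GFP-Veh (-1.35 ± 0.20, adjusted p = 0.000196). It averaged 20.6 ± 6.72 FPKM in LH3-AL and 9.68 ± 1.61 in GFP-AL (0.98 ± 0.20, adjusted p = 0.00246), and its exons overlap Lrp3 on the opposite strand.

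The glutamine carrier Slc38a5 had 68.5, 59.7, 40.7, 30.7 and 41.9 FPKM in LH3-AL, 18.2, 11.8, 24.0, 34.8 and 16.8 in GFP-AL and 31.0, 49.4, 41.8, 35.2 and 32.9 in GFP-Veh. GFP-AL replicate 4 overlapped the other groups, and the difference was -0.89 ± 0.25 in GFP-AL against GFP-Veh (limma adjusted p = 0.0170, a call lost without GFP-AL replicates 2 and 3 and GFP-Veh replicate 2, at 0.110, and with estimated depth as a covariate, at 0.147) and 1.19 ± 0.25 in LH3-AL against GFP-AL (adjusted p = 0.00370). The astrocytic glutamate transporter Slc1a2 averaged 57.9 ± 5.50 FPKM in LH3-AL, 35.2 ± 7.28 in GFP-AL and 56.5 ± 9.58 in GFP-Veh (-0.68 ± 0.15 in GFP-AL against GFP-Veh at adjusted p = 0.00409, and 0.72 ± 0.15 in LH3-AL against GFP-AL, adjusted p = 0.00314). Of 6 astrocyte markers 1 was higher and 1 lower in GFP-AL against GFP-Veh (Gfap and Aqp4), and their part in the level of Slc1a2 was not tested. Slc1a1, a glutamate and cysteine carrier, was lower with the LH3 virus, at 21.3 ± 3.76 FPKM in LH3-AL, 34.3 ± 5.61 in GFP-AL and 26.9 ± 2.61 in GFP-Veh (LH3-AL against GFP-AL, -0.66 ± 0.13, adjusted p = 0.00203). The arginine carrier Slc7a1, the glutamine carrier Slc38a3 and the glutamate transporter Slc1a3 had differences from -0.58 to -0.34 in GFP-AL against GFP-Veh that were not called (adjusted p between 0.0671 and 0.12).

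Carriers of zinc, iron, copper and magnesium numbered 30, of which 5 rose and 5 fell in GFP-AL against GFP-Veh (all genes 10.8% and 17.7%). In LH3-AL against GFP-AL 4 rose and 4 fell (all genes 17.0% and 11.4%). Slc39a1 (ENSMUSG00000052310, chromosome 3, 90248172 to 90253612, plus strand), a zinc importer of the plasma membrane, was the most abundant of the class. It measured 57.6, 62.1, 54.9, 54.5 and 68.4 FPKM in LH3-AL, 86.5, 122, 99.1, 93.5 and 87.8 in GFP-AL and 54.0, 55.5, 51.3, 51.4 and 45.9 in GFP-Veh. All GFP-AL libraries stood above all others. The difference was 0.90 ± 0.10 in GFP-AL against GFP-Veh (limma adjusted p = 3.38e-05) and -0.70 ± 0.10 in LH3-AL against GFP-AL (adjusted p = 0.000346). Slc39a14, which imports zinc, manganese and iron not bound to transferrin, rose from a lower level, with 1.58, 2.13, 1.58, 1.93 and 1.57 FPKM in LH3-AL, 4.44, 4.65, 2.23, 2.52 and 4.24 in GFP-AL and 1.82, 1.28, 1.58, 1.78 and 1.92 in GFP-Veh (0.75 ± 0.15 in GFP-AL against GFP-Veh at adjusted p = 0.00215).

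Other zinc importers fell. Slc39a10 had 83.9, 54.1, 66.9, 71.7 and 64.5 FPKM in LH3-AL, 32.6, 13.4, 20.3, 52.9 and 42.7 in GFP-AL and 55.4, 41.0, 82.3, 63.3 and 59.3 in GFP-Veh. The GFP-AL libraries were below all of LH3-AL and overlapped GFP-Veh (LH3-AL against GFP-AL, 1.19 ± 0.29, adjusted p = 0.00795; -0.99 ± 0.29 in GFP-AL against GFP-Veh at adjusted p = 0.0187, a call lost without GFP-AL replicate 3, at 0.0512, with estimated depth as a covariate, at 0.0637, and with only these groups in the fit). Slc39a12 averaged 14.1 ± 2.75 FPKM in LH3-AL, 7.85 ± 1.58 in GFP-AL and 16.3 ± 3.50 in GFP-Veh (-0.96 ± 0.16 in GFP-AL against GFP-Veh at adjusted p = 0.000672). Slc39a8, an importer of zinc and manganese, was not called (-0.31 ± 0.14 in GFP-AL against GFP-Veh at adjusted p = 0.104), nor were the zinc exporter Slc30a1 (-0.01 ± 0.19, adjusted p = 0.968) and the iron importer Slc11a2 (0.04 ± 0.13, adjusted p = 0.855).

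The iron exporter Slc40a1 fell to 12.5, 5.89, 5.55, 10.4 and 13.0 FPKM in GFP-AL, against 13.9, 18.2, 19.9, 19.3 and 16.5 in GFP-Veh (-0.89 ± 0.21, adjusted p = 0.00549), and was 17.7 ± 3.71 FPKM in LH3-AL against 9.46 ± 3.55 in GFP-AL (0.89 ± 0.21, adjusted p = 0.00660). Slc11a1, the metal carrier of phagocyte vesicles, rose to 2.39, 4.33, 4.57, 2.77 and 3.68 FPKM in GFP-AL, against 1.51, 1.59, 1.08, 1.14 and 1.32 in GFP-Veh (0.95 ± 0.13, adjusted p = 0.000113), and was 1.36 ± 0.0904 FPKM in LH3-AL (-0.92 ± 0.13 against GFP-AL, adjusted p = 0.000228). The part of the higher microglia, macrophage and neutrophil markers in Slc11a1 was not tested. The magnesium carrier Slc41a2 averaged 1.68 ± 0.165 FPKM in LH3-AL, 2.57 ± 0.611 in GFP-AL and 1.30 ± 0.0673 in GFP-Veh (0.61 ± 0.11 in GFP-AL against GFP-Veh at adjusted p = 0.000687).

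Vitamin carriers had 3 lower and 1 higher of 9 in GFP-AL against GFP-Veh (all genes 17.7% and 10.8%). In LH3-AL against GFP-AL 3 were higher and none lower (all genes 17.0% and 11.4%). The thiamine carrier Slc19a3 (ENSMUSG00000038496, chromosome 1, 83012523 to 83038448, minus strand) led the class, with 33.4, 26.3, 38.3, 39.9 and 34.3 FPKM in LH3-AL, 20.98, 5.80, 8.09, 22.5 and 15.1 in GFP-AL and 33.5, 32.4, 42.2, 32.8 and 32.9 in GFP-Veh. All GFP-AL libraries were below all others (-1.36 ± 0.28 in GFP-AL against GFP-Veh at adjusted p = 0.00218; 1.34 ± 0.28 in LH3-AL against GFP-AL, adjusted p = 0.00290). Slc5a6, which carries biotin and pantothenate, averaged 7.37 ± 0.950 FPKM in LH3-AL, 4.44 ± 1.46 in GFP-AL and 7.87 ± 0.292 in GFP-Veh (-0.75 ± 0.16 in GFP-AL against GFP-Veh at adjusted p = 0.00256), and its exons overlap Atraid on the opposite strand. The folate carrier Slc46a1 averaged 2.91 ± 0.773 FPKM in LH3-AL, 1.51 ± 0.515 in GFP-AL and 3.23 ± 0.538 in GFP-Veh (-0.77 ± 0.16 in GFP-AL against GFP-Veh at adjusted p = 0.00298). The other folate carrier, Slc19a1, was not called (-0.26 ± 0.12, adjusted p = 0.129).

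Carriers of bicarbonate, protons and chloride had 1 higher and 5 lower of 26 in GFP-AL against GFP-Veh (all genes 10.8% and 17.7%). In LH3-AL against GFP-AL 6 were higher and none lower (all genes 17.0% and 11.4%). Slc26a10 (ENSMUSG00000040441, chromosome 10, 127171393 to 127180645, minus strand), a member of the SLC26 anion exchanger family, had the largest fall of all carriers. Its levels were 25.1, 17.4, 22.3, 18.5 and 19.8 FPKM in LH3-AL, 7.86, 1.61, 3.82, 6.04 and 4.27 in GFP-AL and 18.9, 33.1, 29.7, 30.9 and 24.4 in GFP-Veh. The GFP-AL libraries were below all others without overlap, and their mean was 0.172 times that of GFP-Veh. The difference was -2.40 ± 0.25 in GFP-AL against GFP-Veh (limma adjusted p = 2.02e-05) and 2.02 ± 0.25 in LH3-AL against GFP-AL (adjusted p = 9.91e-05), and an exon overlaps B4galnt1 on the opposite strand.

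Slc4a10, a sodium-driven bicarbonate carrier of choroid plexus and neurons, had 11.1, 13.4, 8.79, 12.8 and 11.1 FPKM in LH3-AL, 6.52, 2.49, 1.38, 3.46 and 5.53 in GFP-AL and 10.8, 9.28, 10.8, 10.2 and 12.5 in GFP-Veh (-1.38 ± 0.24 in GFP-AL against GFP-Veh at adjusted p = 0.000751; 1.46 ± 0.24 in LH3-AL against GFP-AL, adjusted p = 0.000680). The GFP-AL libraries lay below all others. By limma 6 of 8 choroid plexus markers were lower in GFP-AL too, and their part in Slc4a10 was not tested. The proton exchanger Slc9a2 averaged 5.08 ± 0.640 FPKM in LH3-AL, 4.14 ± 0.570 in GFP-AL and 5.89 ± 0.427 in GFP-Veh (-0.43 ± 0.10 in GFP-AL against GFP-Veh at adjusted p = 0.00482). The sodium, potassium and chloride cotransporter Slc12a2 was not called (-0.24 ± 0.14, adjusted p = 0.215).

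The only riser of the class was Slc4a1, band 3 of red cells, with 7.23, 6.25, 7.16, 4.96 and 25.2 FPKM in LH3-AL, 26.9, 4.17, 30.1, 30.3 and 11.6 in GFP-AL and 1.29, 1.06, 2.63, 1.59 and 1.69 in GFP-Veh. Both groups with drugs stood above all GFP-Veh libraries. The difference was 2.77 ± 0.47 in GFP-AL against GFP-Veh (limma adjusted p = 0.000617) and 1.86 in LH3-AL against GFP-Veh (interval of 2 SE from 0.92 to 2.80, adjusted p = 0.119). All 6 red cell markers examined rose in GFP-AL against GFP-Veh (summed 4767 to 10110 FPKM in LH3-AL, 3870 to 19320 in GFP-AL and 1468 to 3863 in GFP-Veh), and their part in Slc4a1 was not tested.

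Carriers of neurotransmitters, taurine and creatine had 3 lower of 12 in GFP-AL against GFP-Veh (all genes 17.7%). In LH3-AL against GFP-AL 3 were higher (all genes 17.0%). Their summed level was 559.9 ± 48.1 FPKM in LH3-AL, 382 ± 81.3 in GFP-AL and 501 ± 28.0 in GFP-Veh (SD, n = 5 each). The taurine transporter Slc6a6, the most abundant of the class, measured 318, 214, 268, 209 and 281 FPKM in LH3-AL, 200.5, 56.9, 202, 159.9 and 114 in GFP-AL and 173, 149, 244, 189 and 175 in GFP-Veh. LH3-AL libraries stood above all of GFP-AL (0.93 ± 0.28, adjusted p = 0.0227, a call lost without LH3-AL replicate 1, at 0.0572, and with only these groups in the fit), and GFP-AL against GFP-Veh was not called (-0.46 ± 0.28, adjusted p = 0.231). The astrocytic GABA transporter Slc6a11 fell to 36.3 ± 8.34 FPKM in GFP-AL, against 70.0 ± 22.7 in GFP-Veh (-0.90 ± 0.22, adjusted p = 0.00775), and was 68.6 ± 20.3 FPKM in LH3-AL. The glycine transporter Slc6a9 fell to 8.03 ± 1.59 FPKM in GFP-AL, against 15.2 ± 3.20 in GFP-Veh (-0.83 ± 0.21, adjusted p = 0.00773), with exons that overlap B4galt2 on the opposite strand. The creatine transporter Slc6a8 (0.46 ± 0.21, adjusted p = 0.121) and the inositol carrier Slc5a3 (-0.48 ± 0.20, adjusted p = 0.0899) were not called.

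Among carriers of fatty acids, choline and nucleosides, 3 of 9 fell in GFP-AL against GFP-Veh (all genes 17.7%). In LH3-AL against GFP-AL 3 rose (all genes 17.0%). The fatty acid transport protein Slc27a1 measured 63.6, 106, 67.8, 74.6 and 58.2 FPKM in LH3-AL, 49.7, 45.9, 34.7, 39.2 and 53.8 in GFP-AL and 92.1, 67.6, 65.3, 96.2 and 108 in GFP-Veh. The GFP-AL libraries were below all others (-0.92 ± 0.18 in GFP-AL against GFP-Veh at adjusted p = 0.00171; 0.70 ± 0.18 in LH3-AL against GFP-AL, adjusted p = 0.0105). Slc29a4, a monoamine transporter, averaged 16.8 ± 2.85 FPKM in LH3-AL, 9.33 ± 2.45 in GFP-AL and 18.1 ± 2.07 in GFP-Veh (-0.91 ± 0.15 in GFP-AL against GFP-Veh at adjusted p = 0.000473). The nucleoside carrier Slc29a1 was not called (-0.14 ± 0.10, adjusted p = 0.332).

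Calcium, phosphate and sulfate carriers had 3 lower of 13 in GFP-AL against GFP-Veh (all genes 17.7%). In LH3-AL against GFP-AL 5 were higher and 1 lower (all genes 17.0% and 11.4%). The sulfate carrier Slc13a4 averaged 32.7 ± 7.003 FPKM in LH3-AL, 20.2 ± 5.33 in GFP-AL and 31.7 ± 6.60 in GFP-Veh (-0.64 ± 0.19 in GFP-AL against GFP-Veh at adjusted p = 0.0213). That call was lost without GFP-AL replicate 2 (-0.52, adjusted p = 0.0512), without GFP-AL replicates 2 and 3 and GFP-Veh replicate 2 (-0.36, 0.190), with estimated depth as a covariate (-0.52, 0.150) and with weighted libraries (-0.46, 0.0672). The phosphate carrier Slc20a1 was lower with the LH3 virus, at 10.3 ± 1.33 FPKM in LH3-AL, 15.9 ± 4.27 in GFP-AL and 12.2 ± 1.66 in GFP-Veh (LH3-AL against GFP-AL, -0.55 ± 0.15, adjusted p = 0.0164).

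Nucleotide sugar and acetyl-CoA carriers, of which some feed glycosylation in the Golgi, were grouped by family name. The class had 4 higher and 2 lower of 25 in GFP-AL against GFP-Veh (all genes 10.8% and 17.7%). In LH3-AL against GFP-AL 3 were higher and 5 lower (all genes 17.0% and 11.4%). Slc35e4, a family member with no settled substrate, averaged 6.02 ± 0.871 FPKM in LH3-AL, 10.9 ± 2.81 in GFP-AL and 6.02 ± 0.659 in GFP-Veh, and all GFP-AL libraries were above the others (0.73 ± 0.14 in GFP-AL against GFP-Veh at adjusted p = 0.00156). The UDP-galactose carrier Slc35a2 fell by 0.43 ± 0.09 on the log2 scale in GFP-AL against GFP-Veh (limma adjusted p = 0.00342). Its difference in LH3-AL against GFP-AL was not called (0.0953, adjusted p = 0.46). In the class of vesicular, peptide and other carriers Slc15a3, a lysosomal peptide and histidine carrier of immune cells, measured 1.88, 4.62, 2.43, 1.80 and 3.01 FPKM in GFP-AL, against 0.817, 0.915, 0.791, 0.690 and 0.918 in GFP-Veh (0.99 ± 0.16). It was 0.681 ± 0.182 FPKM in LH3-AL (-1.11 ± 0.16 against GFP-AL), and its exons overlap Tmem132a on the opposite strand. It too passed the level rule through GFP-AL alone, so no test is given, and the part of the higher microglia, macrophage and neutrophil markers in it was not tested. The vesicular glutamate transporter Slc17a7, a neuronal gene, was not called (0.01 ± 0.29, adjusted p = 0.979).

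The 5 members that are not carriers are the scaffold proteins Slc9a3r1 and Slc9a3r2, Slc4a1ap and Slc7a6os, which are named after a carrier gene they bind or lie beside, and the pseudogene Slc2a4rg-ps. Slc2a4rg-ps fell to 3.61 ± 1.51 FPKM in GFP-AL, against 9.37 ± 1.82 in GFP-Veh (-1.24 ± 0.23, adjusted p = 0.00126). Without these genes 22 of 208 carriers rose and 41 fell in GFP-AL against GFP-Veh (all genes 10.8% and 17.7%). In LH3-AL against GFP-AL 41 rose and 20 fell (all genes 17.0% and 11.4%).

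Partners of the carriers and carriers with other names were examined as a list of 20, of which 16 were tested. In GFP-AL against GFP-Veh none rose and 3 fell (all genes 10.8% and 17.7%), a lower share near that of all genes. Bsg, the chaperone that brings Slc16a1 and Slc16a3 to the membrane, fell to 503 ± 141 FPKM in GFP-AL, against 1106 ± 242 in GFP-Veh (-1.16 ± 0.21, adjusted p = 0.000893), and was 887 ± 162 FPKM in LH3-AL (0.85 ± 0.21 against GFP-AL, adjusted p = 0.00794). The pyrophosphate exporter Ank also fell (-0.35 ± 0.12, adjusted p = 0.0419). In LH3-AL against GFP-AL 3 of the list rose, Bsg and Ank among them, while Emb, another chaperone of monocarboxylate carriers, and the sodium pump subunit Atp1b3 fell (-0.46 ± 0.13, adjusted p = 0.0164, and -0.39 ± 0.12, adjusted p = 0.0293). Of all genes 17.0% rose and 11.4% fell in LH3-AL against GFP-AL. Mfsd2a, the lysolipid carrier of brain endothelium, was not called (-0.31 ± 0.21 in GFP-AL against GFP-Veh at adjusted p = 0.282).

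With AAV-LH3 and drugs, no carrier was called against the saline group. In LH3-AL against GFP-Veh limma called 0 of 213 members in either direction, beside 0.145% higher and 0.375% lower of all genes tested. At an unadjusted p below 0.05 there were 17, beside 9.02% of all genes, the groups did not overlap for 5 higher and 6 lower members (2.06% and 2.61% of all genes), and the median was 0.02 where that of all genes was -0.01. With libraries weighted by limma's arrayWeights 9 members were higher and 10 lower (3.43% and 5.70% of all genes), and with only these groups in the fit 2 were higher and 1 lower (0.482% and 0.864% of all genes). A missing call does not show equal levels. For Slc10a6 the interval of 2 SE around the difference ran from -0.45 to 0.77, for Slc16a3 from -0.52 to 0.73, for Slc26a10 from -0.89 to 0.13 and for Slc16a4 from -0.56 to 0.61.

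**Figure D4:**
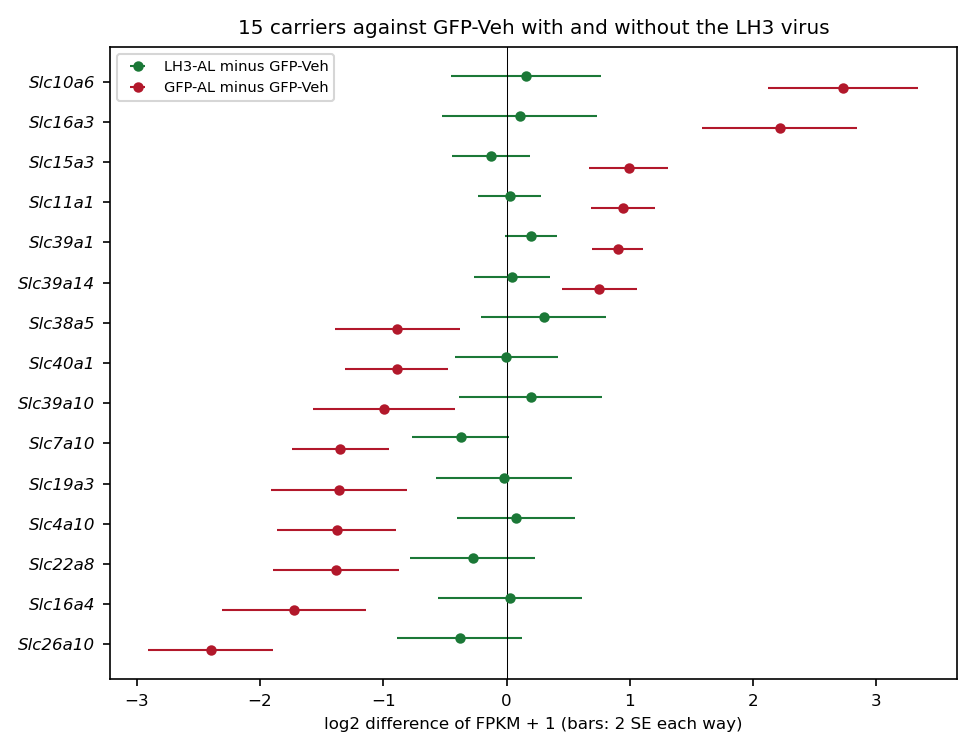
Log2 difference of FPKM + 1 from GFP-Veh of 15 carriers that rose or fell in GFP-AL against GFP-Veh, for LH3-AL (green, above) and GFP-AL (red, below), with bars of 2 SE each way. Slc10a6 and Slc15a3 passed the level rule through GFP-AL alone, so their points are a description, with no test. The GFP-AL points lie between -2.40 and 2.73, and the LH3-AL points between -0.38 and 0.30; the genes were picked for their change in GFP-AL.

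All genes of the authors' deposited table for GFP-AL against GFP-Veh have a q-value below 0.05 and a log2 change of more than 1 either way. It held 21 of the 213 members among its 1764 genes, 6 higher and 15 lower. Of the 13082 genes tested here it held 4.33% as higher and 3.86% as lower. The members' lower share was thus larger and their higher share smaller, which was not tested. In the authors' deposited table Slc10a6 had a log2 fold change of 4.69 and Slc16a3 of 3.34, without the added 1 FPKM. A further deposited table is named for LH3-AL against GFP-Veh, but its 1746 genes had the sign of LH3-AL against GFP-AL in 1746 cases and of LH3-AL against GFP-Veh in 1036, so its contrast is uncertain and none of its values is given.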

How the data were processed

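RNA of cerebral vessels was sequenced in 15 libraries, 5 per group. The deposited table gives FPKM, and per the submitters' processing notes the authors used STAR 2.5.1b and build mm8. No source used here says how reads were counted, on which strand and with which annotation. Of the deposited values 5.99% lay below 0 (lowest -0.465) by a step that is not given, so the column is FPKM with a further adjustment. Values below 0 were set to 0 and rows of 31 repeated symbols were summed. The authors' deposited tables give log2 fold changes with p-values and q-values, and list only genes past thresholds.

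Differences in log2(FPKM + 1) were tested with limma 3.58.1 (R 4.3.3), with 1 mean per group over all 15 libraries, an intensity trend and a filter of a mean of at least 1 FPKM (13082 genes), and p-values adjusted by Benjamini-Hochberg over all genes within each comparison. An adjusted p below 0.05 was a call. The procedure was tested on simulated data. Exact permutation tests are 2-sided. Depth was estimated from the steps between low values, of which 42.6% to 64.4% per library came out whole within 0.1 fragment, so count tests were not run.

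Members, lists and classes were chosen with earlier results of these data known, and the class of genes that are not carriers was set apart after the gene names were seen. Genes named are those with the 8 highest and 8 lowest called changes per comparison without overlap, up to 4 called members with the smallest p and the 2 most abundant members of each class, and a list of carriers known from the blood-brain barrier or from metal, inositol and nucleoside handling, with some left as counts or not reported here. Positions are from GENCODE M21 on GRCm38, matched by gene ID, since the files hold no coordinates, and promoters are from RefSeq on GRCm38.p6, matched by symbol. Libraries were not paired by replicate number in the main fit. Deviations of same-numbered libraries correlated above 0.1 in 2, 2 and 1 of 5 pairs in the 3 comparisons, which cannot show whether the design was paired. Alternatives were a pseudocount of 0.1 FPKM, no filter, a filter at 5 FPKM, scaling by median of ratios or quantiles, only the groups compared, the replicate block, arrayWeights, each library left out and, added after the data were seen, leaving out 3 libraries together and a depth covariate.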

Additional observations from a re-analysis of the deposited data

Results flagged for a closer look

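Of 279 groups of 5 libraries (93 named carriers in 3 groups), 21 (7.53%) held a library whose gap to the nearest other exceeded 0.71 of the group's range; chance flags about 1 in 20 groups. LH3-AL replicate 2 accounted for 8 of these, LH3-AL replicate 5 for 3, and no other library for more than 2. The part of these libraries in the calls is given by the values without each library.

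In LH3-AL replicate 2, Slc15a4 was at 2.26 FPKM (other libraries of the group 1.95 to 2.001), Slc19a1 at 9.12 (7.42 to 7.88), Slc1a4 at 13.4 (7.13 to 7.87), Slc39a12 at 18.9 (12.1 to 14.0), Slc48a1 at 92.8 (61.8 to 65.1) and Slc6a9 at 23.8 (9.41 to 13.5). The same library was low for Slc35f2 at 29.9 FPKM (38.6 to 41.8) and for Slc37a3 at 2.70 (3.80 to 4.09). In LH3-AL replicate 5, Slc16a3 was at 2.60 FPKM (0.681 to 0.955), Slc35f5 at 17.6 (11.9 to 12.9) and Slc4a1 at 25.2 (4.96 to 7.23).

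In GFP-AL, replicate 2 was high for Slc16a3 at 23.5 FPKM (5.17 to 8.04) and low for Slc22a8 at 25.8 (67.7 to 81.8). GFP-AL replicate 3 was high for Slc2a1 at 1979 FPKM (1105 to 1274) and for Slc1a1 at 44.0 (30.4 to 33.9). Slc6a11 was at 50.8 FPKM in GFP-AL replicate 1 (29.3 to 34.4) and Slc15a2 at 8.89 in GFP-AL replicate 5 (3.27 to 4.43).

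In GFP-Veh, replicate 3 was low for Slc12a4 at 17.7 FPKM (20.6 to 21.7) and high for Slc19a3 at 42.2 (32.4 to 33.6). Slc5a6 was at 8.38 FPKM in GFP-Veh replicate 5 (7.70 to 7.85) and Slc6a20a at 148 in GFP-Veh replicate 2 (117 to 123).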

How the results depend on the processing

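No call of a named carrier changed direction under any alternative. Of the 93 named carriers, 56 were called in GFP-AL against GFP-Veh, 33 of them under every alternative run, and 53 in LH3-AL against GFP-AL, 38 of them under every alternative run. All of these counts include Slc10a6 and Slc15a3, which passed the level rule through GFP-AL alone. Leaving out 1 library gave 17 to 24 members higher and 36 to 48 lower in GFP-AL against GFP-Veh, 35 to 51 higher and 16 to 21 lower in LH3-AL against GFP-AL, and 0 to 1 higher and 0 lower in LH3-AL against GFP-Veh. The 1 was Slc4a1, called without GFP-AL replicate 2 (adjusted p = 0.0214). A mean of at least 5 FPKM left 119 members in the fit, with 13 higher in GFP-AL against GFP-Veh (13.0% of all genes) and 12 lower in LH3-AL against GFP-AL (14.3%). In LH3-AL against GFP-Veh, fitting only these groups gave 2 higher and 1 lower (0.482% and 0.864% of all genes), arrayWeights 9 higher and 10 lower (3.43% and 5.70%), and leaving out GFP-AL replicates 2 and 3 and GFP-Veh replicate 2 gave 1 higher (0.527%). The depth covariate gave 14 higher and 27 lower in GFP-AL against GFP-Veh (7.68% and 10.1%). Apart from the smaller number of genes under the stricter filter, the cause was not tested. With the replicate number as a block the counts were 23 higher and 43 lower in GFP-AL against GFP-Veh, 46 and 18 in LH3-AL against GFP-AL, and 0 and 0 in LH3-AL against GFP-Veh. Correlations of same-numbered libraries ran from -0.261 to 0.286, and those of differently numbered libraries from -0.377 to 0.402. Depth is an estimate, and differences of carriers near 1 FPKM are understated, since the added 1 FPKM shrinks them.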
